A study of Mus musculus with 12 samples.

Results

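Interferon-induced genes are the transcripts that cells switch on when an interferon reaches its receptor, and 44 of them were followed here through germinal centre (GC) B cells and plasmablasts of mice lacking Myb or Moz. The members are the rows of the gene count table whose Entrez gene ID carries 1 of the 44 listed mouse symbols and that have at least 10 counts in 2 or more of the 12 libraries. All 44 symbols had a gene ID among the 27179 in the table, and 42 met the count rule. Mx2 and Ifi44 did not, with at most 12 and 8 counts in any library. Of the 42 members, 28 had at least 10 counts in every library, and all 42 were among the 13131 genes tested.

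The libraries are polyA RNA of sorted B cells from C57BL/6 mice, each from a pool of 2 to 8 mice, with n = 2 pools in each of 6 groups. GC B cells are activated B cells that mutate and select their antibody genes after immunisation, and plasmablasts are their antibody-secreting relatives. In the Myb experiment the knockout mice were Myb fl/fl CD23-cre T/+ and the controls Myb fl/fl with no cre, so cre and the loss of Myb cannot be told apart there. GC B cells of the Myb experiment were taken 12 days after NP-KLH in alum, and secondary plasmablasts 5 days after a boost with NP-KLH in PBS. In the Moz experiment the knockout mice were Moz fl/fl AID-cre T/+ and the controls AID-cre T/+. GC B cells of the Moz experiment were taken 7 days after immunisation. CD23 is a marker of mature B cells and AID an enzyme of activated B cells, so both cre transgenes act in the B lineage. The age of the mice is not given in the labels. The knockout and control groups held 5 and 5 mice for Myb GC B cells, 9 and 13 for Myb plasmablasts, and 14 and 11 for Moz GC B cells.

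Type I interferons bind the receptor Ifnar1 and Ifnar2, and interferon gamma binds Ifngr1 and Ifngr2. Both activate Jak kinases. Stat2 and Irf9 are parts of a complex that binds the interferon-stimulated response element, and the gamma-activated site is the element through which interferon gamma acts. The induced proteins include sensors of foreign RNA and DNA, inhibitors of viral growth, guanylate-binding proteins and immunity-related GTPases that attack the vacuoles of intracellular microbes, and subunits of the immunoproteasome, which cuts peptides for class I presentation.

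Before the results, some facts of the libraries matter. Totals were 8285934 to 24801297 counts. Levels are given as CPM, the count of a gene relative to its library scaled to a common size, after TMM scaling, which uses an effective library size that leaves out the pull of a few dominant transcripts. Immunoglobulin transcripts took 65.0 to 70.0% of plasmablast counts and 1.59 to 9.16% of GC counts. Myb knockout GC pool 1 is labelled as 2 females but held 67.2 CPM of the Y-linked gene Ddx3y before scaling, against 0.323 CPM in knockout pool 2. Control GC pool 1 of day 12 held 17.7 CPM and control GC pool 2 0.483 CPM. The plasmablast and Moz libraries held 4.85 to 108 CPM. Y-linked transcripts thus went with the pool number in the Myb GC libraries, and their part in the values was not tested. Values of the called genes without Myb knockout GC pool 1 are given after the main counts of the Myb GC comparison. Germinal centre markers fitted the sort: the 6 summed to 61.2 to 73.4 CPM in plasmablasts and 954 to 1571 CPM in GC libraries. The 6 plasma cell markers summed to 104336 to 143177 CPM in plasmablasts and 924 to 7128 CPM in GC libraries.

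The response element and the activated site can be read in the members' promoters. Windows of 250 bases before to 50 after the annotated start were taken from RefSeq (GRCm38.p6) for the 31 members that have one. The core GAAANNGAA, searched on both strands, lay in a window of 19 of 31 members (61.3%), against 2638 of all 27025 genes with a window (9.76%). The activated site TTCNNNGAA, which reads the same on both strands, lay in 12 members (38.7%), against 9.55% of all genes. Repeats of the core in 1 window were found in 10 members (32.3%) and in 0.736% of all genes. Both motifs stood in a window of 7 members (22.6%) and of 1.24% of all genes, and 1 member, Bst2, had a match of each that shared bases. These are matches of letters, not bound sites.

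Shown are 100-base stretches of 7 members, chosen to show single, repeated and combined matches in genes that the values below turn on. Capitals mark matches of either motif, and each sequence runs 5′ to 3′ on the gene's own strand.
Irgm1, chr11:48871401-48871500, strand minus: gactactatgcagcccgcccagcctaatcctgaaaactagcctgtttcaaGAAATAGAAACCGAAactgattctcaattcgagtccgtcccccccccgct
Igtp, chr11:58199476-58199575, strand plus: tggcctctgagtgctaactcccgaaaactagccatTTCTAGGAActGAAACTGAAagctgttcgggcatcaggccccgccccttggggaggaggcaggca
Irgm2, chr11:58214867-58214966, strand plus: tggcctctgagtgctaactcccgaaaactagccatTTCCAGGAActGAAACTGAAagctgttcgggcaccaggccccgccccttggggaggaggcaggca
Gbp2, chr3:142620553-142620652, strand plus: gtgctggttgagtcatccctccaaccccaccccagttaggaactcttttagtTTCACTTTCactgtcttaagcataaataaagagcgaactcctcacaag
Gbp7, chr3:142530206-142530305, strand plus: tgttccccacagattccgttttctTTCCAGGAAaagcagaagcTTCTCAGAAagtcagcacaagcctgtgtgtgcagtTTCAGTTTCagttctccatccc
Isg15, chr4:156200829-156200928, strand minus: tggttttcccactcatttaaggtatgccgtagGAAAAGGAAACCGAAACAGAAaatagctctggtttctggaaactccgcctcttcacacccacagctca
Ifit3, chr19:34583349-34583448, strand plus: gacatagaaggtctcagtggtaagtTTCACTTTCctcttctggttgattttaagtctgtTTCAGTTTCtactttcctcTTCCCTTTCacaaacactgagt

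In Irgm1, a regulatory GTPase called in both fits of Myb knockout GC B cells below, 2 overlapping cores begin 30 and 24 bases before the start. In Igtp and Irgm2, 2 further regulatory GTPases that lie next to each other, the stretches shown differ at 2 of 100 bases. Each holds an activated site beginning 11 bases ahead of a core, at 45 and 34 bases before the start in Igtp and at 75 and 64 in Irgm2. Isg15, a ubiquitin-like protein that is attached to other proteins, holds 3 overlapping cores, and Ifit3, which belongs to a family that binds foreign RNA, holds 3 separate ones. All 4 guanylate-binding protein genes with a window held a core, and so did 3 of 4 immunity-related GTPases. Neither motif was found in the windows of Irf7, Irf9, Ifi47, Xaf1, Oasl1, Oasl2 and Psmb9.

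**Figure D1:**
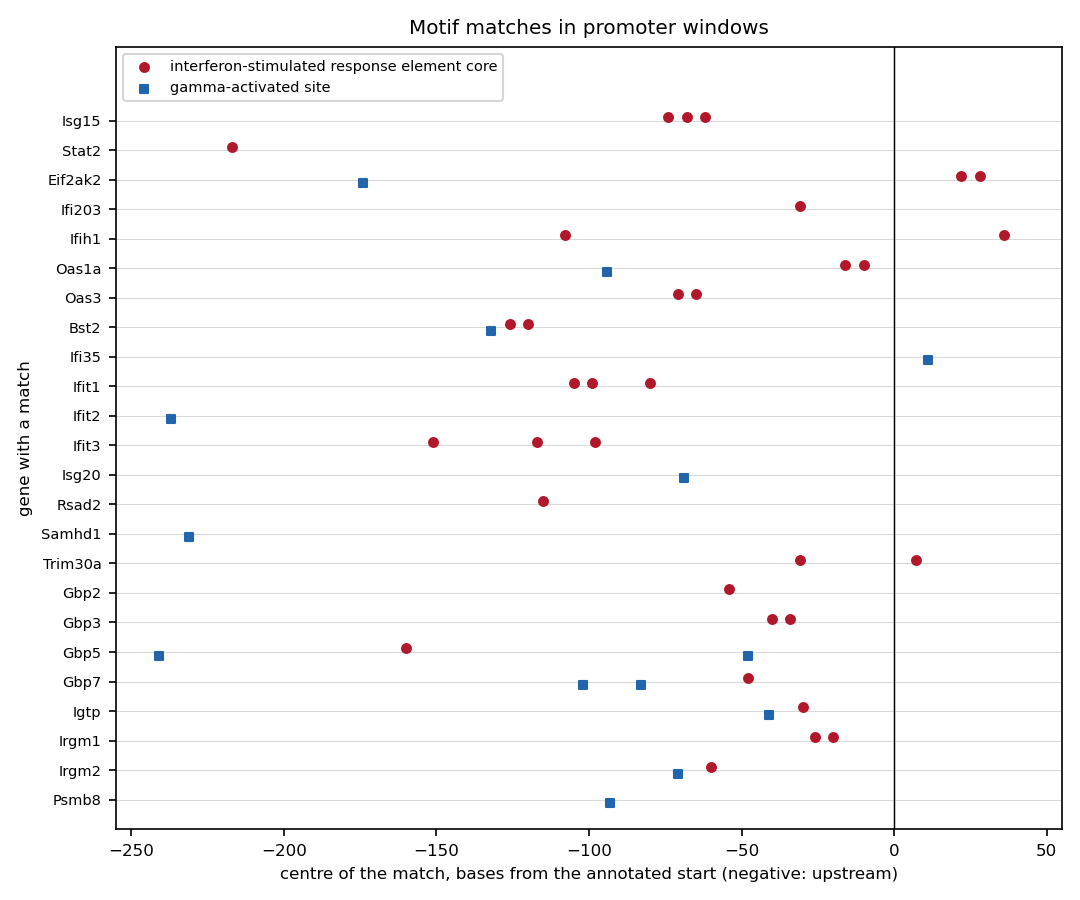
Positions of motif matches in the promoter windows of the 24 members with at least 1 match. The x axis is the distance in bases of the match's centre from the annotated start (negative is upstream), circles are cores of the interferon-stimulated response element, squares are gamma-activated sites, and each row is 1 gene. Most cores lie within 130 bases upstream of the start.

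The members' levels spanned more than 4 orders of magnitude on a per-length scale. In control plasmablasts Psmb8 stood first with 382 CPM per kb of exon, then Bst2 with 309, Psmb9 with 260, Isg20 with 227 and Samhd1 with 96.6. Psmb8 and Psmb9 are catalytic subunits of the immunoproteasome, and Samhd1 breaks down deoxynucleotides that viruses need. Bst2 (tetherin) holds budding viruses at the cell surface and Isg20 is an exonuclease. The order in control GC B cells of day 12 differed: Psmb8 had 451 CPM per kb, Psmb9 244 and Samhd1 118, and no other member had more than 26.0. At the low end of that group were Oas2 with 0.0841, Iigp1 with 0.0575 and Gbp6 with 0.0255 CPM per kb. Many neighbours in these orders do not differ beyond their spread: the pools of 31 of 41 neighbouring pairs overlapped in control plasmablasts, and of 31 of 41 in control GC B cells. In plasmablasts Psmb8, Bst2, Psmb9 and Isg20 each overlapped the next, while Isg20 (224 to 229.7 CPM per kb) lay above Samhd1 (92.3 to 101 CPM per kb). In GC B cells Psmb8, Psmb9 and Samhd1 each stood apart from the next member, while Ifi35 overlapped Ifi47.

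Psmb8, Psmb9 and Samhd1 carried 42.6 to 44.1% of the summed member CPM in plasmablasts and 61.8 to 76.6% in GC libraries. The other 39 members summed to 688 and 617 CPM in Myb knockout GC B cells, against 483 and 427 CPM in their controls. In Myb knockout plasmablasts they summed to 1195 and 1586 CPM, against 1303 and 1472 CPM in control plasmablasts. In Moz knockout GC B cells they summed to 612 and 628 CPM, against 564 and 468 CPM in their controls. These sums of 39 members do not overlap in either pair of GC groups and overlap in plasmablasts. The sums of all 42 members overlap in both pairs of GC groups. They were 1804 and 2162 CPM in Myb knockout GC B cells, against 1525 and 1829 CPM in their controls. In Moz knockout GC B cells they were 1656 and 1776 CPM, against 1624 and 1713 CPM in their controls. In bulk samples, fewer cells that express a gene and less RNA per cell cannot be told apart.

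**Figure D2:**
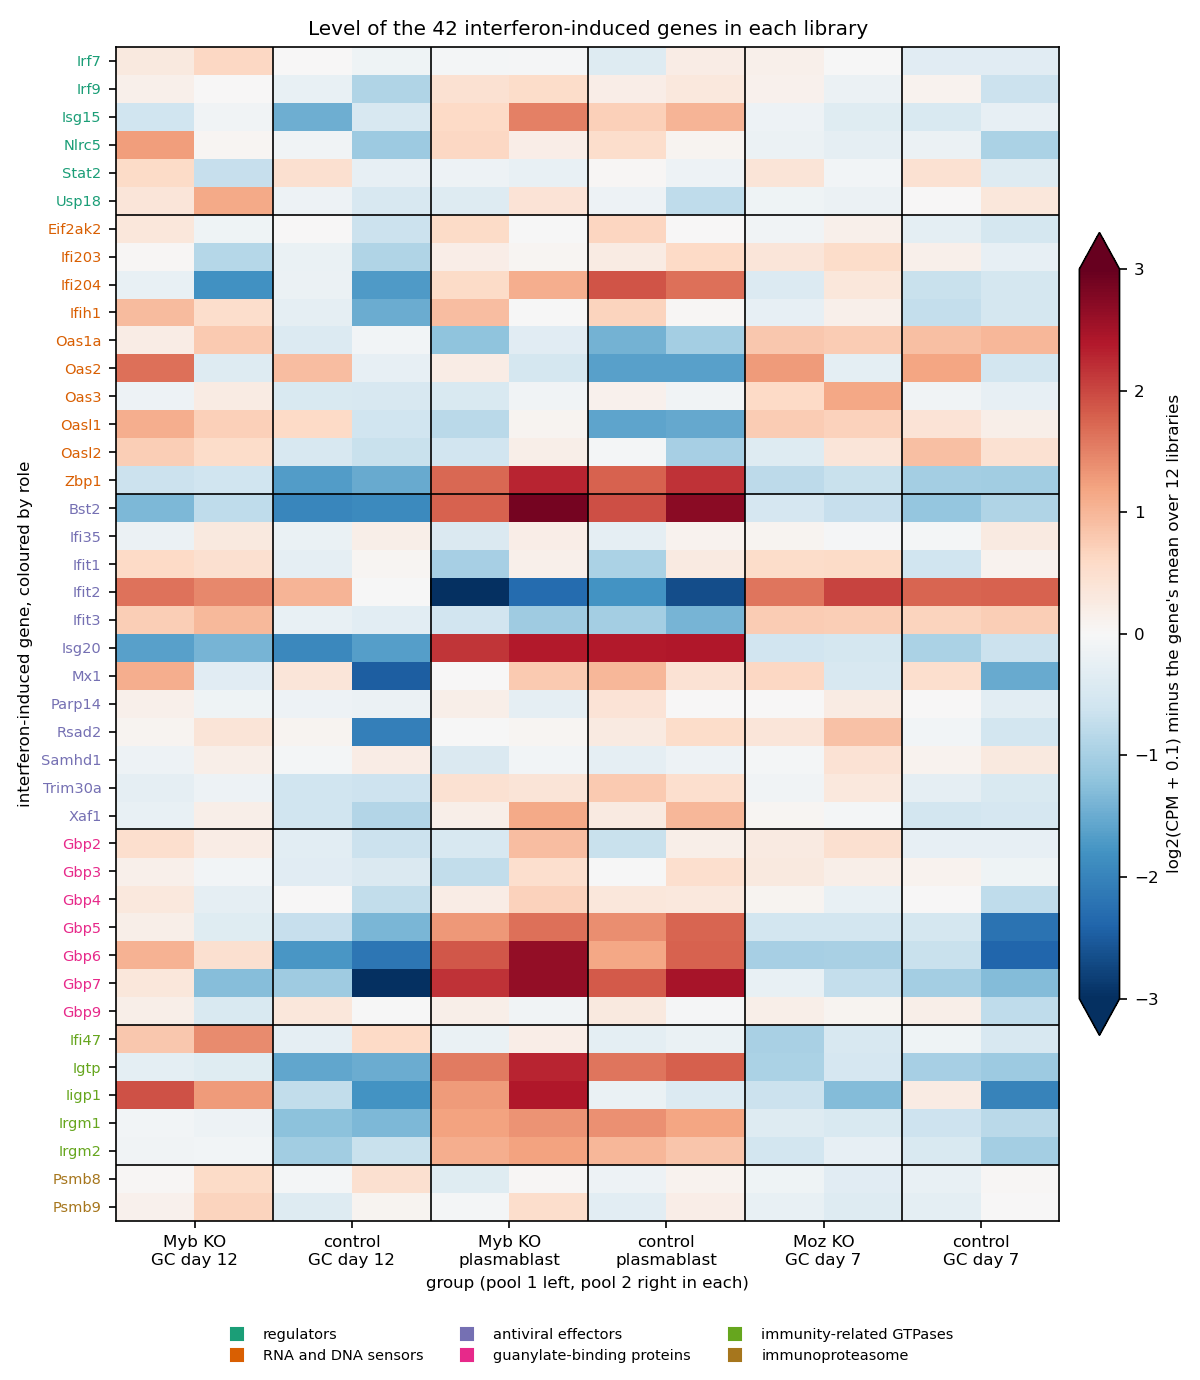
Level of each of the 42 members in each of the 12 libraries, as log2(CPM + 0.1) minus that gene's mean over all libraries (colour, limited to 3 either way). Rows are genes coloured by role, columns are pools 1 and 2 of each group. Bst2, Isg20, Zbp1, Gbp5, Gbp6, Gbp7, Igtp and Irgm1 are darkest red in the 4 plasmablast libraries, and Ifit2 is blue there.

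In GC B cells of day 12, the question is which members differ when Myb is deleted. The members as a group were higher in the knockout: 38 of 42 estimates were above 0 with a median log2 difference of 0.74, beside 6555 of 13131 and a median of 0.00 over all tested genes. In 28 of 42 members both knockout pools lay above both control pools, against 13.8% of all tested genes. Both lay below in 0 members, against 1545 of 13131 tested genes. Pool by pool, the median member difference was 0.56 between the first pools and 0.84 between the second pools. A single member, Irgm1, passed the test on group means (edgeR quasi-likelihood, Benjamini-Hochberg adjusted p under 0.05 over all genes), where 0.236% of genes were called higher and 17 members had an unadjusted p under 0.05. Knockout and control pools with the same number share experiment dates, and in the fit that takes the number as a block 11 members rose and 0 fell, where 2.03% of all genes were called higher.

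Knockout pool 1 is the library labelled as females that held Y-linked transcripts. Without it, the fit on group means had a member median of 0.67. The 11 members then had log2 differences of 0.57 to 3.12, all above 0. Nlrc5 moved by more than 1.5 times, to 0.57, against 1.29 with all libraries. Gbp7 moved by more than 1.5 times without any 1 of the 4 libraries, with a range of 0.59 to 4.19. Without control pool 1, Ifih1 was at 2.37, against 1.55 with all libraries, and Iigp1 at 4.41, against 3.28. The call of Irgm1 on group means was lost without any 1 of the 4 libraries (log2 1.12 to 1.24, edgeR adjusted p 0.0582 to 0.355). A group left with 1 pool is assumed there to vary like the other groups. The block fit with both pools of 1 number left out holds 1 library a genotype, so its spread comes from other groups alone; it had a member median of 0.85 without the first pools and 0.57 without the second.

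Of the immunity-related GTPases 4 of 5 were called in the block fit, the largest share of any role. All 5 estimates were above 0, with log2 differences of 0.76 to 3.28 on group means. Irgm1 (gene ID 15944, chr11:48865245-48871420) had 19.9 and 18.9 CPM in knockout GC B cells, against 8.87 and 8.22 CPM in control GC B cells. The groups stand well apart and pools within each are nearly equal (log2 1.18, SE 0.18, adjusted p = 0.0266 on group means in edgeR; SE 0.15, adjusted p = 0.00156 with the block). Igtp (gene ID 16145, chr11:58199556-58207592) had 22.0 and 20.9 CPM in the knockout, against 9.01 and 9.51 CPM in the control. It also rose in the block fit (log2 1.21, SE 0.18, edgeR adjusted p = 0.00463), not on group means (adjusted p = 0.113). Ifi47, another GTPase of the family, had 47.4 and 72.0 CPM in the knockout, against 22.5 and 40.6 CPM in the control (block fit: log2 0.95, SE 0.18, edgeR adjusted p = 0.0205).

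Iigp1 (gene ID 60440), an effector GTPase that coats parasite vacuoles, was nearly silent in control GC B cells. It had 2.26 and 1.44 CPM in the knockout, against 0.279 and 0.0806 CPM in the control, from 60 counts against 5 over both pools. That is a ratio of 10.1 with an exact 95% interval of 4.08 to 32.1 that covers counting error only (block fit: edgeR adjusted p = 0.0237). Irgm2 had 11.4 and 11.4 CPM in the knockout, against 5.87 and 7.66 CPM in the control, without overlap, and did not pass (edgeR adjusted p = 0.138 with the block).

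Of the 7 guanylate-binding proteins, 3 rose in the block fit and 6 estimates were above 0. Gbp2 (gene ID 14469, chr3:142620663-142638008) had 12.2 and 9.998 CPM in the knockout, against 6.85 and 5.48 CPM in the control without overlap (block fit: log2 0.85, SE 0.19, edgeR adjusted p = 0.0368). Gbp7 (gene ID 229900, chr3:142530336-142550151) had 4.64 and 1.44 CPM in the knockout, against 1.68 and 0.161 CPM in the control. These overlap between pools of different numbers, but each knockout pool exceeded the control pool of its date (block fit: log2 1.76, SE 0.33, edgeR adjusted p = 0.0191). Gbp6 had 1.57 and 1.03 CPM in the knockout, against 0.140 and 0.0806 CPM in the control. It rested on 42 counts against 3, a ratio of 11.7 with an exact 95% interval of 3.75 to 59.2 (block fit: edgeR adjusted p = 0.0353). Gbp9 lay on the other side of 0, with 20.2 and 13.0 CPM in the knockout, against 22.8 and 17.8 CPM in the control, and did not pass.

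Among the 10 nucleic acid sensors, 2 rose in the block fit. Zbp1 (gene ID 58203, chr2:173206612-173218959), a sensor of Z-form nucleic acid that can trigger cell death, had 24.5 and 25.1 CPM in the knockout, against 11.9 and 13.3 CPM in the control (block fit: log2 0.98, SE 0.12, edgeR adjusted p = 0.00161). Its pools agree closely within each genotype. Ifih1 (gene ID 71586), which encodes the RNA sensor MDA5, had 4.35 and 3.22 CPM in the knockout, against 1.82 and 0.726 CPM in the control (block fit: log2 1.59, SE 0.32, edgeR adjusted p = 0.0236). The oligoadenylate synthetases Oas1a, Oas2 and Oas3, which activate the nuclease RNase L, did not pass, nor did Oasl1, Oasl2 and Eif2ak2 (the kinase PKR). Oas2 had 0.870 and 0.137 CPM in the knockout, against 0.489 and 0.161 CPM in the control.

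Among the regulators, Nlrc5 (gene ID 434341, chr8:94434335-94527272), which activates class I genes, rose in the block fit (log2 1.26, SE 0.17, edgeR adjusted p = 0.00215). It had 62.0 and 27.1 CPM in the knockout, against 24.3 and 12.2 CPM in the control, higher in first pools of both genotypes. Of the other 5 regulators none passed. Irf7, the factor that amplifies type I interferon, had 26.5 and 33.0 CPM in the knockout, against 21.6 and 19.6 CPM in the control, and Isg15 had 5.57 and 7.87 CPM, against 3.00 and 6.05 CPM. Stat2 followed the pool number instead of the genotype, with 59.8 and 24.8 CPM in the knockout and 55.8 and 33.9 CPM in the control.

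Of the 12 antiviral effectors, Bst2 alone (gene ID 69550, chr8:71534255-71537472) rose, in the block fit (log2 0.88, SE 0.17, edgeR adjusted p = 0.0211). It had 17.9 and 27.1 CPM in the knockout, against 11.7 and 12.2 CPM in the control. Ifit3 had 1.45 and 1.71 CPM in the knockout, against 0.698 and 0.645 CPM in the control, apart but not called at this depth. Samhd1, the most abundant effector, had 399 and 502 CPM in the knockout and 426 and 521 CPM in the control. Neither immunoproteasome subunit passed: Psmb8 had 481 and 704 CPM in the knockout, against 450.5 and 653 CPM in the control, and Psmb9 236 and 338 CPM, against 165 and 228 CPM.

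**Figure D3:**
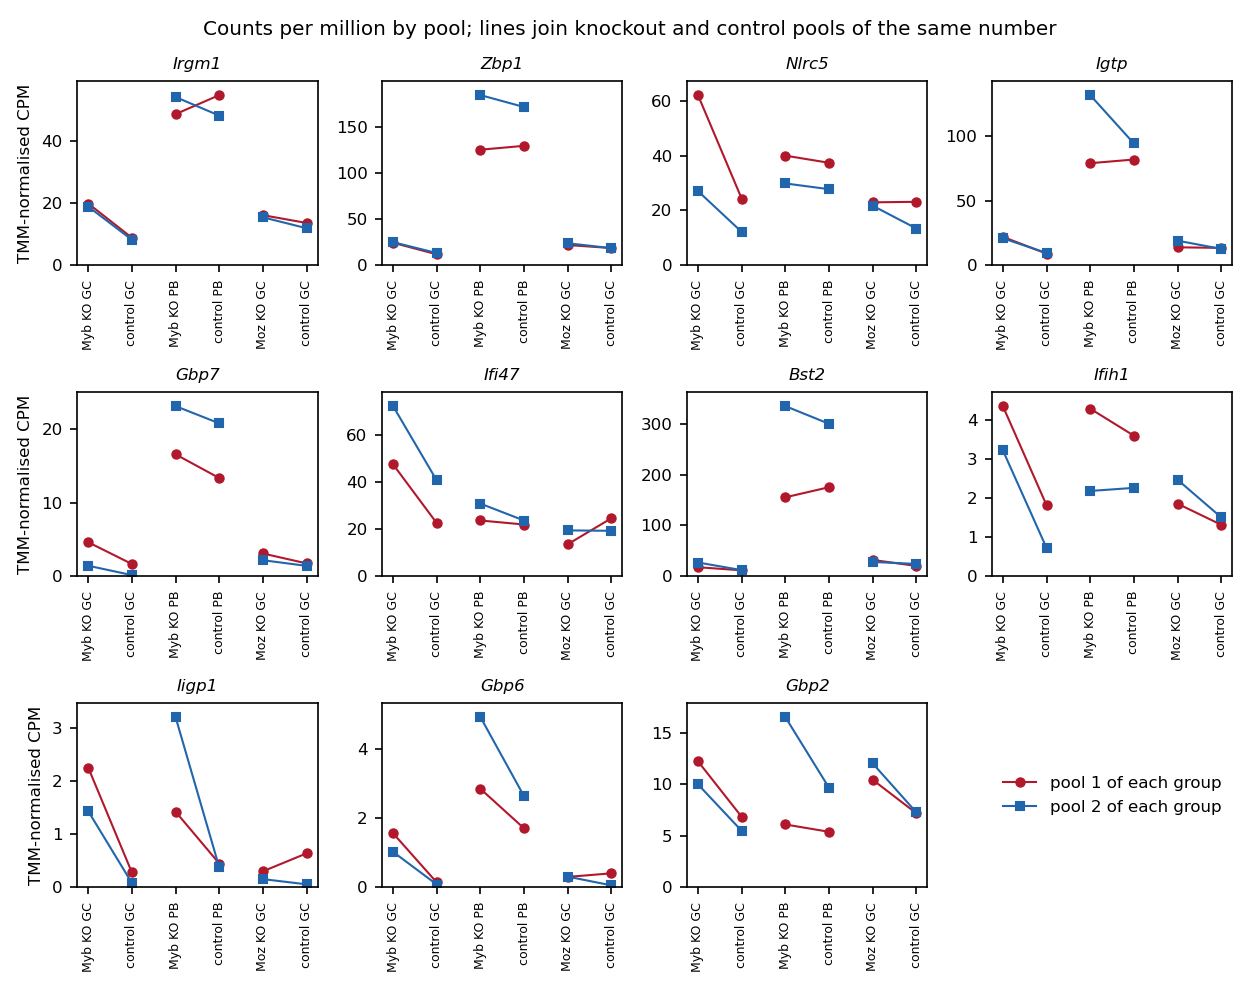
TMM-normalised CPM of the 11 members that rose in Myb knockout GC B cells in the fit with the replicate block, in every pool. Lines join knockout and control pools of the same number (circles, pools 1; squares, pools 2). In GC B cells of day 12 (left pair) all lines fall towards the control, while the lines of the plasmablast and Moz pairs go both ways.

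Interferon pathway genes outside the list followed in part. None of 37 tested passed on group means (9 at an unadjusted p under 0.05), where 0.236% of all genes were called higher. With the block 9 rose and 0 fell, where 2.03% of all genes were called higher. Irf1, a factor induced by interferon gamma, had 83.8 and 56.9 CPM in knockout GC B cells, against 30.2 and 20.6 CPM in the control (block fit: log2 1.47, SE 0.13, edgeR adjusted p = 0.000163). Tbx21, which encodes T-bet, a factor that interferon gamma induces in B cells, had 20.1 and 13.5 CPM in the knockout, against 3.91 and 3.22 CPM in the control (block fit: log2 2.22, SE 0.20, edgeR adjusted p = 0.000196). Without knockout pool 1 the log2 differences on group means were 1.16 for Irf1 and 1.92 for Tbx21.

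The other 7 called were Socs3, an inhibitor of cytokine signalling, Tlr7, the RNA receptor of endosomes, Ifnar2, the peptide transporter Tap1, and the class I chains B2m, H2-K1 and H2-D1. B2m had 1053 and 1447 CPM in the knockout, against 548 and 854 CPM in the control (block fit: log2 0.85, SE 0.15, edgeR adjusted p = 0.0148). Without knockout pool 1, Socs3 and Tlr7 moved by more than 1.5 times, to log2 differences of 1.04 and 0.78 on group means, against 1.87 and 1.40 with all libraries, and Tlr7 was at 2.12 without control pool 1. Of the 6 receptors tested, Ifnar2 alone was called, with 17.1 and 13.6 CPM in the knockout, against 12.0 and 9.11 CPM in the control (block fit: log2 0.54, SE 0.13, edgeR adjusted p = 0.0487). Ifnar1 had 36.1 and 21.2 CPM in the knockout, against 29.4 and 24.1 CPM in the control, and Ifngr1 40.2 and 46.6 CPM, against 51.5 and 57.2 CPM, neither called. Ligands were all but absent: Ifnb1, Ifna1, Ifna2, Ifna4, Ifnl2 and Ifnl3 had 0 counts in every library, and Ifng at most 0.344 CPM in any library.

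Markers of other cells were read beside these differences. Plasma cell markers summed to 1310 and 1841 CPM in Myb knockout GC B cells, against 924 and 1474 CPM in the control, and these overlap. Jchain carried most of each sum, with 1051 and 1537 CPM, against 770 and 1266 CPM. Tnfrsf17 went the other way, with 0.580 and 0.342 CPM, against 0.629 and 0.887 CPM. On group means 5 of the 6 marker estimates were above 0 in Myb knockout GC B cells, and 1 was called. Prdm1, the factor of plasma cell differentiation, rose there (21.8 and 14.9 CPM in the knockout, 3.21 and 4.03 CPM in the control; log2 2.34, SE 0.35, edgeR adjusted p = 0.0248 on group means). Without knockout pool 1 the log2 difference was 2.04 and its adjusted p in edgeR 0.1297.

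The 6 natural killer cell markers summed to 4.06 and 3.29 CPM in the knockout, against 1.33 and 2.02 CPM in the control. The 5 T cell markers summed to 6.38 and 4.79 CPM, against 3.70 and 3.39 CPM, and the 5 plasmacytoid dendritic cell markers to 51.0 and 31.9 CPM, against 64.2 and 50.1 CPM. The myeloid sum was 34.7 and 6.09 CPM in the knockout, against 27.2 and 7.17 CPM in the control, so it followed the pool number. Within these lists the genes differed. Prf1 had 1.22 and 1.51 CPM in the knockout, against 0.279 and 0.564 CPM in the control, Nkg7 0.638 and 0.548 CPM, against 0 and 0.242 CPM, and Cd4 2.43 and 1.78 CPM, against 1.05 and 1.05 CPM, while Ncr1 had 0.174 and 0.0685 CPM, against 0.279 and 0.161 CPM. Pacsin1 carried most of the plasmacytoid dendritic cell sum, with 48.9 and 31.1 CPM, against 62.9 and 49.7 CPM, and Siglech had at most 0.870 CPM. Lyz2, with 17.9 and 2.26 CPM in the knockout and 11.7 and 1.85 CPM in the control, carried much of the myeloid sum, and Gzmb was at 0 in 3 of these 4 libraries. The part of these cells in the member differences was not tested.

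In plasmablasts the members did not move together when Myb was deleted. With and without the block 0 members were called (2 at an unadjusted p under 0.05 on group means and 4 with the block), where 0.0381% and 0.579% of all genes were called in either direction. The median member difference was 0.04 on the log2 scale, with 23 of 42 estimates above 0, beside a median of 0.01 over all genes. Both knockout pools lay above both control pools in 7 members, against 13.6% of all genes. They lay below them in 5 members, against 1520 of 13131 genes, a similar share. Without Oas2, whose control pools were at 0, the median was also 0.04.

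Irgm1 had 48.7 and 54.2 CPM in knockout plasmablasts, against 54.8 and 48.2 CPM in control plasmablasts, and Zbp1 125 and 185 CPM, against 129.7 and 172 CPM. Both overlap fully. Bst2 had 155 and 335 CPM in the knockout, against 175 and 300.0 CPM in the control, and here the second pool was high in both genotypes. The smallest p belonged to Iigp1, with 1.43 and 3.21 CPM in the knockout, against 0.449 and 0.377 CPM in the control, apart but not called (39 counts against 8, edgeR adjusted p = 0.164 with the block).

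Oasl1 had 1.30 and 2.52 CPM, against 0.718 and 0.753 CPM, Gbp2 6.10 and 16.5 CPM, against 5.39 and 9.66 CPM, and Ifi204 0.779 and 1.15 CPM, against 2.07 and 1.76 CPM. None of these passed. Irf7 had 20.5 and 21.1 CPM in the knockout, against 16.3 and 25.0 CPM in the control, Stat2 35.9 and 34.1 CPM, against 40.8 and 36.1 CPM, and Isg15 12.7 and 24.3 CPM, against 13.9 and 17.2 CPM. Psmb8 had 369.6 and 483 CPM, against 425 and 510.4 CPM, and Ifit3 0.519 and 0.344 CPM, against 0.359 and 0.251 CPM. The spread between pools of 1 genotype is as wide as that between genotypes for most of these. Oas2 had 3 counts in knockout and 0 in control plasmablasts, too few for a fold. Of the pathway genes outside the list, 0 of 37 passed in either fit: Irf1 had 76.3 and 100.1 CPM in the knockout, against 64.3 and 78.8 CPM in the control.

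The difference between the effects was tested directly as the effect in plasmablasts minus the effect in GC B cells. On group means 0 members passed (5 at an unadjusted p under 0.05), where 0.00762% of all genes were called. With the block 2 members were called, both lower, where 0.541% of all genes were called in either direction. The effect of the knockout on Irgm1 was smaller in plasmablasts by a log2 difference of -1.18 (SE 0.20, edgeR adjusted p = 0.0241 with the block, 0.354 without). For Zbp1 the difference was -0.95 (SE 0.16, edgeR adjusted p = 0.0278 with the block, 0.958 without). DESeq2, without the block, called Irgm1 alone (adjusted p = 0.0154). Without knockout GC pool 1 the differences on group means were -1.15 for Irgm1 and -0.95 for Zbp1. Over all 42 members the median difference on group means was -0.65, and 4 estimates were above 0. Igtp (log2 difference -0.99, edgeR adjusted p = 0.126 with the block), Trim30a (-0.62, 0.388) and Gbp6 (-2.64, 0.408) had the next smallest p on group means, and none passed.

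**Figure D4:**
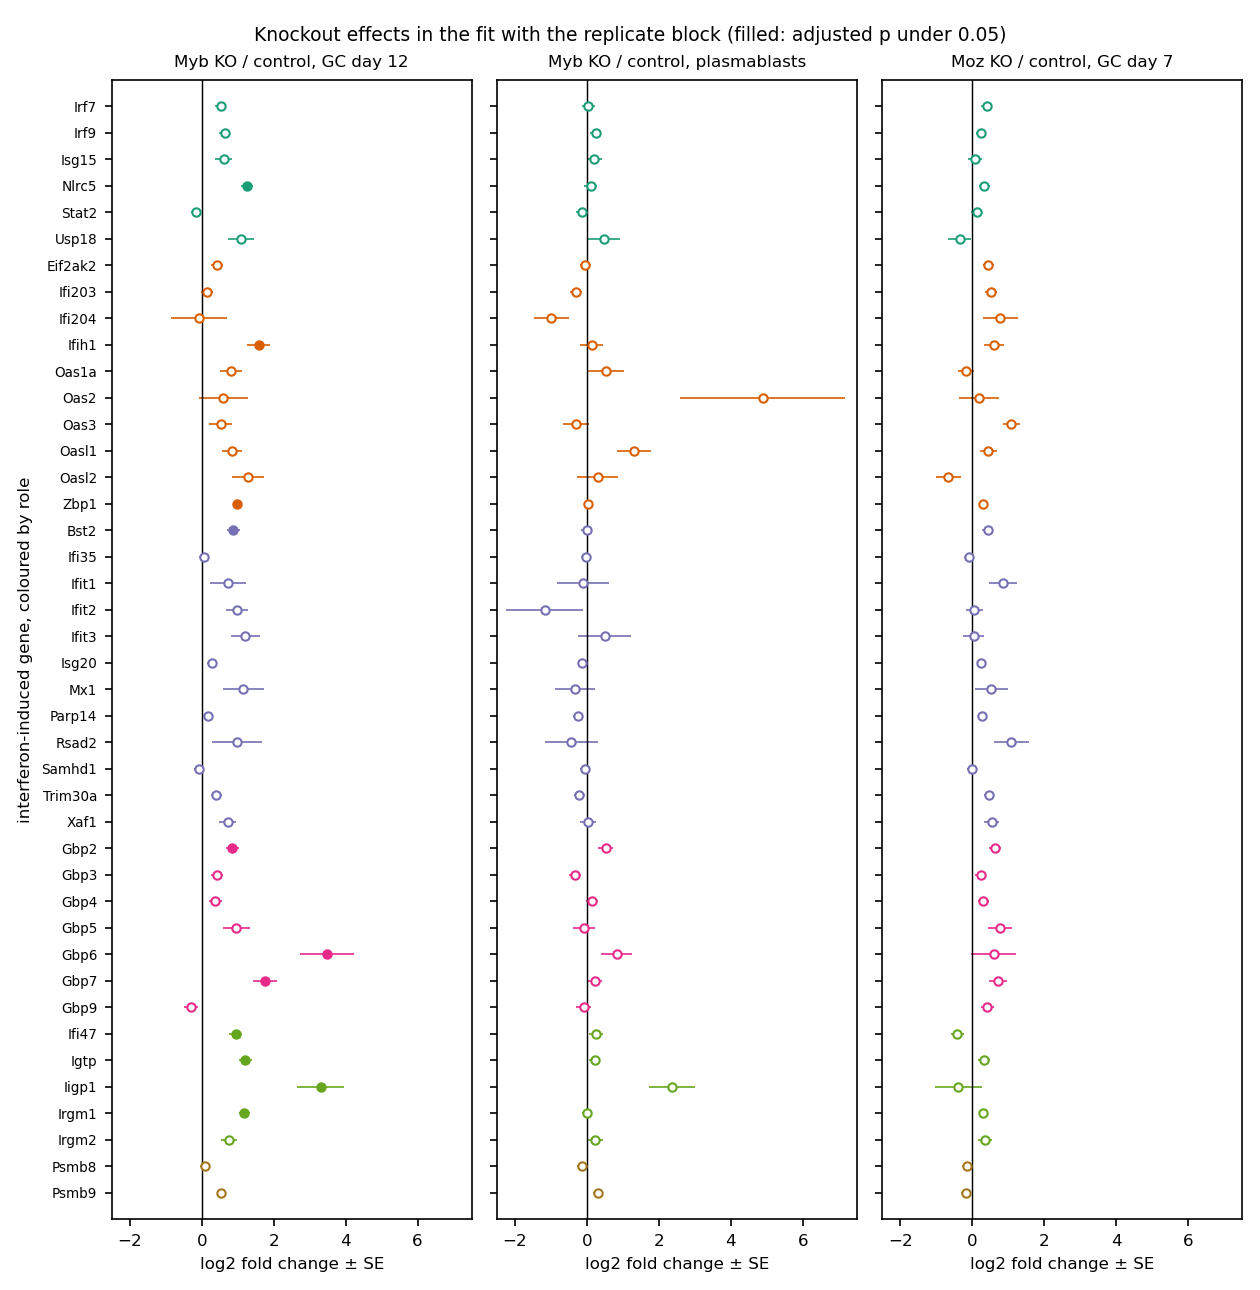
Log2 fold change of knockout over control ± SE for each of the 42 members in Myb GC B cells, Myb plasmablasts and Moz GC B cells, from the fit with the replicate block. Filled points passed an adjusted p of 0.05, colours are the roles named in the plot of levels by library, and the wide Oas2 estimate in plasmablasts rests on 3 counts against 0. The 11 filled points are all in the Myb GC panel.

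In GC B cells of day 7, deletion of Moz moved no member past the threshold. Of the members 0 were called on group means, where 0% of all genes were called (2 members and 315 of all genes at an unadjusted p under 0.05). With the block 0 were called as well, where 0.297% of all genes were called. In that fit 16 members had an unadjusted p under 0.05, a count not set against all genes. Estimates were above 0 in 34 of 42 members with a median log2 difference of 0.30, beside -0.01 over all genes. Both knockout pools lay above both control pools in 21 members, against 13.3% of all genes. They lay below them in 3 members, against 1762 of 13131 genes. Pool by pool the median was 0.09 between first pools and 0.47 between second pools.

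The smallest p was that of Oas3, with 4.14 and 6.20 CPM in Moz knockout GC B cells, against 2.53 and 2.29 CPM in their controls (log2 1.09, SE 0.25, edgeR adjusted p = 0.104 with the block). Irgm1 had 16.1 and 15.4 CPM, against 13.6 and 11.9 CPM, Trim30a 51.0 and 68.5 CPM, against 45.8 and 40.0 CPM, and Irf7 23.7 and 21.4 CPM, against 17.1 and 17.0 CPM. In these 3 the groups do not overlap, and none passed. Gbp2 had 10.4 and 12.0 CPM, against 7.19 and 7.27 CPM. Zbp1 had 22.0 and 23.9 CPM, against 18.7 and 18.6 CPM. Bst2 had 32.2 and 28.2 CPM, against 20.4 and 24.3 CPM. These 3 also stand apart between the groups without passing.

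In Isg15, Stat2, Psmb8 and Oas2 the Moz groups overlap. Isg15 had 7.51 and 6.48 CPM in the Moz knockout, against 6.07 and 7.08 CPM in the control, Stat2 52.5 and 37.9 CPM, against 54.6 and 30.6 CPM, and Psmb8 432 and 375 CPM, against 408 and 480.0 CPM. Rsad2, the antiviral enzyme viperin, had 0.863 and 1.30 CPM, against 0.607 and 0.418 CPM, apart but near the limit of detection. Oas2 had 0.647 and 0.154 CPM, against 0.607 and 0.111 CPM. Ifit3 had 1.47 and 1.45 CPM, against 1.38 and 1.45 CPM, a difference smaller than the spread between pools.

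Other members lay on the other side of 0. Ifi47 had 13.6 and 19.4 CPM in the Moz knockout, against 24.6 and 19.3 CPM in the control, and Usp18, a protease that removes Isg15, had 2.20 and 2.13 CPM, against 2.43 and 3.07 CPM. The plasma cell sum was 5965 and 7128 CPM in the Moz knockout, against 4589 and 4835 CPM in the control, and the part of this in the values was not tested. Irf1 had 37.2 and 29.5 CPM, against 41.8 and 25.0 CPM.

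The effect of Myb deletion minus that of Moz deletion in GC B cells was also tested, although day, cre transgene and experiment differ with it. No member passed in either fit, where 0% of all genes were called on group means and 0.236% with the block. At an unadjusted p under 0.05 there were 7 members on group means and 16 with the block. The smallest p was that of Ifi47 with the block (log2 difference 1.36, SE 0.26, edgeR adjusted p = 0.0688), followed by adjusted p of 0.118 for Irgm1, 0.195 for Iigp1, 0.267 for Oasl2 and 0.343 for Usp18. Outside the list, Irf1 (log2 difference 1.43, SE 0.18, edgeR adjusted p = 0.00822) and Tbx21 (1.92, SE 0.28, adjusted p = 0.0205) passed with the block and not without it. Without Myb knockout GC pool 1 the differences on group means were 1.17 for Irf1 and 1.66 for Tbx21.

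Control plasmablasts against control GC B cells of day 12 gave the largest differences in the members' levels. Of 42 members, 15 were higher and 2 lower on group means, where 25% of all genes were called higher and 28.1% lower. The median member difference was 0.65 on the log2 scale, beside -0.17 over all genes. In the fit with the replicate number as a block, 19 were higher and 4 lower, where 29.3% and 34.3% of all genes were called. Here GC and plasmablast pools share a number but no date (correlation of their deviations 0.247). The block is therefore not a pairing by date, and calls made with it alone are less secure. The members' share called higher, 15 of 42, thus stands not far above the share of all genes. With library totals alone in place of TMM scaling, 7 were higher and 25 lower, since the median of all genes shifts to -2.04. The member median was then -1.23, above the all-gene median by 0.81, against 0.82 under TMM scaling. Cell type, boost and date of sorting cannot be told apart in this comparison.

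Isg20 (gene ID 57444, chr7:78913396-78920396) had 262 and 269 CPM in control plasmablasts, against 13.2 and 16.2 CPM in control GC B cells (log2 4.18, SE 0.23, edgeR adjusted p = 1.26e-07). Bst2 had 175 and 300.0 CPM, against 11.7 and 12.2 CPM (log2 4.31, SE 0.41, edgeR adjusted p = 4.38e-06). Zbp1 had 129.7 and 172 CPM, against 11.9 and 13.3 CPM (log2 3.58, SE 0.24, edgeR adjusted p = 3.94e-07). In these 3 genes the lowest plasmablast pool lay far above the highest control GC pool. With library totals alone they were still higher, while Isg15, Xaf1, Irgm2, Trim30a and others changed sign.

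The immunity-related GTPases split in this comparison. Igtp had 81.7 and 94.1 CPM in plasmablasts, against 9.01 and 9.51 CPM in GC B cells, and rose (log2 3.25, SE 0.27, edgeR adjusted p = 1.56e-06). Irgm1 (log2 2.59, SE 0.19) and Irgm2 (log2 1.77, SE 0.25) also rose. Ifi47 did not pass, with 21.9 and 23.6 CPM in plasmablasts, against 22.5 and 40.6 CPM in GC B cells. Of the guanylate-binding proteins, Gbp5, Gbp6 and Gbp7 rose: Gbp7 had 13.4 and 20.8 CPM, against 1.68 and 0.161 CPM, and Gbp6 1.71 and 2.64 CPM, against 0.140 and 0.0806 CPM. Gbp2, with 5.39 and 9.66 CPM against 6.85 and 5.48 CPM, and Gbp9 did not.

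The other members among the 12 with the smallest p were lower in level or change. Gbp5 had 18.1 and 23.3 CPM in plasmablasts, against 4.19 and 2.58 CPM in GC B cells, Isg15 13.9 and 17.2 CPM, against 3.00 and 6.05 CPM, and Trim30a, a regulator of sensing, 94.0 and 77.6 CPM, against 36.0 and 35.7 CPM. Ifi204, a DNA sensor, rested on 37 counts against 7, a ratio of 7.39, and its call was lost without GC pool 2 (adjusted p = 0.0597). Xaf1, a protein of the cell death pathway, had 6.47 and 10.7 CPM, against 3.49 and 2.82 CPM, and its call was lost without GC pool 2 or without plasmablast pool 2 (highest adjusted p = 0.077). All 5 rose on group means in edgeR. Irf7 had 16.3 and 25.0 CPM in plasmablasts, against 21.6 and 19.6 CPM in GC B cells, Stat2 40.8 and 36.1 CPM, against 55.8 and 33.9 CPM, and Psmb8 425 and 510.4 CPM, against 450.5 and 653 CPM, none called. Ifit3 had 0.359 and 0.251 CPM, against 0.698 and 0.645 CPM, also not called. Gbp4, Eif2ak2, Ifih1 and Nlrc5 rose in the block fit and not on group means with all libraries. Ifi203 and Irf9 rose both on group means and in the block fit (log2 0.99 and 0.80 with the block). With library totals alone Gbp4, Eif2ak2, Ifi203 and Irf9 were called lower (log2 -1.26, -1.23, -0.96 and -1.11).

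The 2 members that fell on group means were Ifit2 and Oasl1. Ifit2 (gene ID 15958, chr19:34550550-34576534), which restrains translation of foreign RNA, had 0.539 and 0.251 CPM in plasmablasts, against 4.40 and 2.10 CPM in GC B cells (log2 -2.96, SE 0.59, edgeR adjusted p = 0.00135). Oasl1 had 0.718 and 0.753 CPM, against 3.63 and 1.53 CPM (log2 -1.82, SE 0.51, edgeR adjusted p = 0.0102), and was not called without plasmablast pool 1 or without GC pool 1 (highest adjusted p = 0.126). Oas2 had 0 counts in both plasmablast pools, against 9 in the GC pools, at least 2.14-fold lower with a floor of 3 counts over the group. Oas1a also fell with the block (0.539 and 0.753 CPM, against 1.19 and 1.53 CPM; log2 -1.07, SE 0.44, edgeR adjusted p = 0.0489), not on group means.

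**Figure D5:**
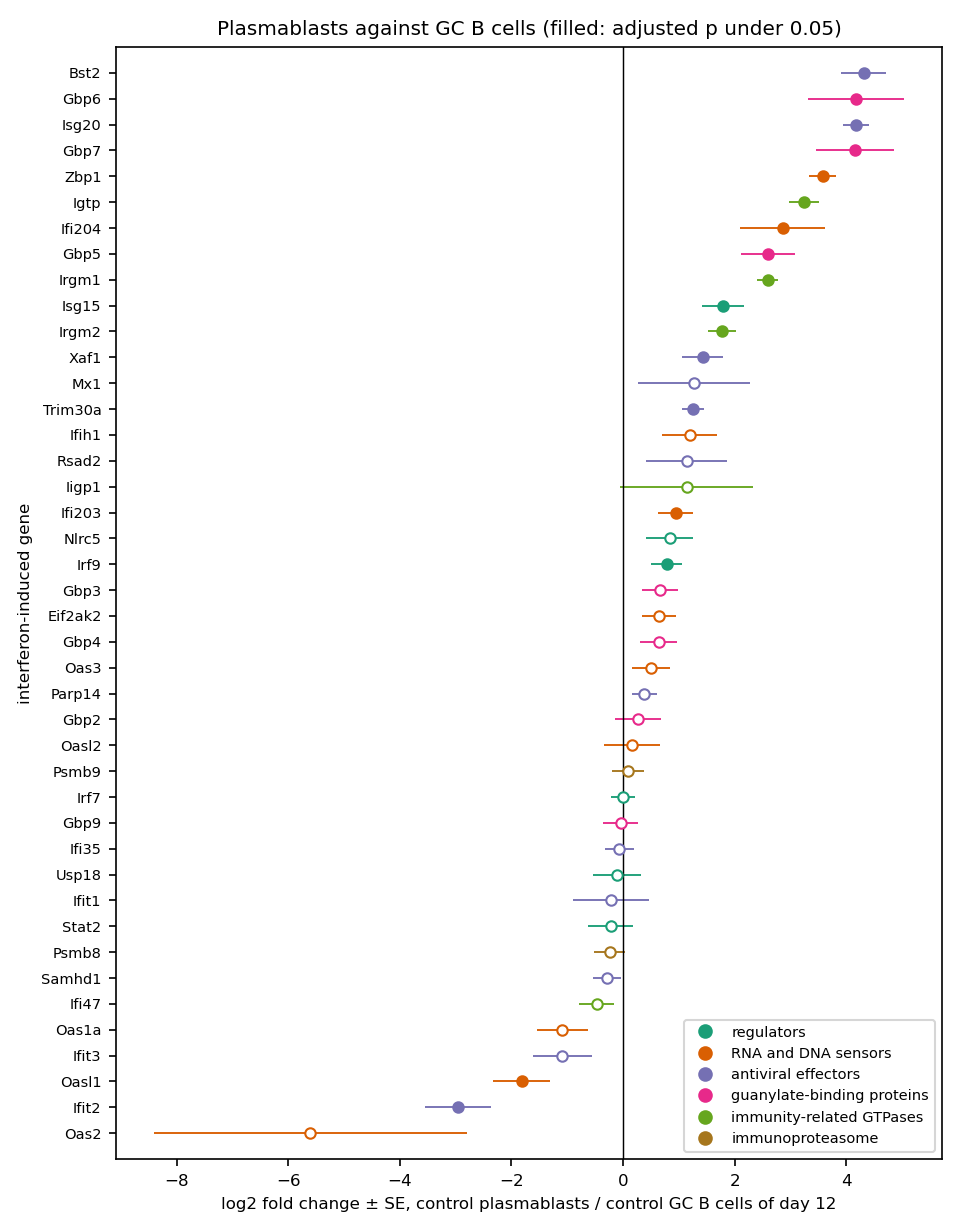
Log2 fold change of control plasmablasts over control GC B cells of day 12 ± SE for the 42 members, in order of size, from the fit on group means. Filled points passed an adjusted p of 0.05, and the Oas2 estimate at the bottom rests on 0 plasmablast counts. Of the filled points 15 lie right and 2 left of 0.

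Receptors of the pathway differed between the cell types in opposite directions. Ifnar1 had 83.6 and 58.5 CPM in control plasmablasts, against 29.4 and 24.1 CPM in control GC B cells (log2 1.41, SE 0.27, edgeR adjusted p = 0.00103), and Ifnar2 119 and 159 CPM, against 12.0 and 9.11 CPM (log2 3.71, SE 0.26, edgeR adjusted p = 4.69e-07). Ifngr1 had 17.3 and 18.8 CPM, against 51.5 and 57.2 CPM (log2 -1.59, SE 0.18, edgeR adjusted p = 2.18e-05). Of 37 pathway genes outside the list, 14 were higher and 11 lower on group means, where 25% of all genes were called higher and 28.1% lower. The count called lower is near the share of all genes. Higher were also Ddx58 (the RNA sensor RIG-I, log2 3.21), Tlr7 (3.29), Irf1 (1.49) and B2m (3.57). Lower were also Jak1 (-1.49), Irf8 (-3.06) and the DNA receptor Tlr9 (-4.71). With library totals alone Ifnar1 and Irf1 had the opposite sign.

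Control GC B cells of day 7 and of day 12 differ in day, genotype and experiment at once. Of 42 members 1 was called, where 1.38% of all genes were called in either direction (8 members at an unadjusted p under 0.05). That was Isg20, with 26.1 and 32.6 CPM on day 7, against 13.2 and 16.2 CPM on day 12 (log2 1.00, SE 0.20, edgeR adjusted p = 0.0398). The 6 plasma cell markers summed to 4589 and 4835 CPM on day 7, against 924 and 1474 CPM on day 12, and 4 of them were called higher (median log2 1.92); their part in the Isg20 difference was not tested. The call was lost when any 1 of the 4 libraries was left out (log2 0.83 to 1.15, adjusted p 0.0838 to 0.335). Ifit2 had 7.25 and 7.44 CPM on day 7, against 4.40 and 2.10 CPM on day 12, Oas1a 3.10 and 3.32 CPM, against 1.19 and 1.53 CPM, and Oasl2 3.10 and 2.23 CPM, against 1.12 and 0.967 CPM, none called.

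Pools of the same number often moved together in both genotypes. In Myb GC B cells, 22 of 42 members (52.4%) were higher in pool 1 than in pool 2 in both genotypes and 11 (26.2%) were lower in both, beside 38.5% and 40.2% of all tested genes. In Myb plasmablasts these counts were 8 and 22 (19.0% and 52.4%), beside 34.4% and 38.7% of all genes, and in Moz GC B cells 13 and 7 (31.0% and 16.7%), beside 26.5% and 30.4%. Stat2, Nlrc5 and Mx1 were higher in first GC pools of both experiments, with 2.03 and 0.685 CPM of Mx1 in Myb knockout GC B cells, against 1.19 and 0.0806 CPM in their controls.

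Many members lie in clusters of related genes, whose reads could be shared between copies. The intervals chr3:142496934-142638008 with Gbp5, Gbp7, Gbp3 and Gbp2 and chr5:105076464-105295871 with Gbp9, Gbp4 and Gbp6 hold the guanylate-binding proteins. Igtp and Irgm2 lie within 23.2 kb on chromosome 11, Ifit2, Ifit3 and Ifit1 within 99.5 kb on chromosome 19, and Oas2, Oas3 and Oas1a within 177 kb on chromosome 5. The sources used here do not say how reads that match several copies were counted, so values of single members of these families are uncertain to that extent. Within clusters the values differ: in Myb knockout over control GC B cells the block-fit log2 differences were 3.47 for Gbp6 and -0.31 for Gbp9 on chromosome 5, and 1.21 for Igtp and 0.76 for Irgm2 on chromosome 11. The difference between genes was not tested.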

How the data were processed

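The authors deposited raw read counts per Entrez gene ID for 12 libraries, and the submitters' processing notes name featureCounts and mm10. No source used here states the aligner, the strand setting, versions or the handling of reads that match several genes, and without a known strand setting reads of overlapping genes cannot be told apart. Symbols and coordinates came from RefSeq GRCm38.p6, the same build, for 25275 of 27179 IDs. No column was unmapped (0), and the library tables equalled the table of the series (0 genes differing). Totals were 8285934 to 24801297 counts, so a gene at 1 CPM rests on few counts.

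The members, roles, pathway list, cell markers and motifs were chosen with earlier results of these data known. All 12 libraries entered 1 model in edgeR 4.0.16 under R 4.3.3, with a mean for each of the 6 groups and 6 residual degrees of freedom, after filterByExpr (minimum count 10, minimum total 15; 13131 genes kept) and TMM scaling. The quasi-likelihood test (glmQLFit, robust, and glmQLFTest; two-sided) was used with Benjamini-Hochberg adjustment over all tested genes, with a limit of 0.05. Counts at an unadjusted p under 0.05 are not calls. The count over all genes stands beside them for the Moz fit on group means alone. SE stands for the standard error of the log2 difference. The common dispersion was 0.0486.

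Same-numbered knockout and control pools share experiment dates per the labels, so the numbers pair them. Their deviations from group means correlated at 0.600 (Myb GC), 0.453 (Myb plasmablasts) and 0.361 (Moz GC). The block fit of the knockout comparisons, with a block for each experiment and cell type, has 3 residual degrees of freedom. Control plasmablasts against control GC B cells used a different block fit, with the pool number shared across cell types of an experiment. No 2 pools of a group were alike within sampling noise (chi-square 26.3 to 96.1 for each degree of freedom). n counts pools of mice, and p-values measure the spread between pools.

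Named genes were the members called in either fit, up to 12 in each direction (the 5 smallest p where fewer than 5 were called), and always Irf7, Stat2, Isg15, Ifit3, Oas2, Zbp1, Gbp2, Irgm1, Psmb8 and Bst2. Of the pathway, called genes were named, and always Irf1, Ifnar1, Ifngr1, Ifng and Ifnb1. A further pathway gene is not reported here. Other names, such as Samhd1, Gbp9, Psmb9, Mx1, Usp18 and those compared between groups as not called, were chosen after their values were seen. Alternatives were DESeq2 1.42.0 (test, and its size factors in edgeR), library totals alone, no filter, no immunoglobulin genes, the compared groups alone, the block, each library left out, and the 28 members with at least 10 counts in every library. Both fits were run on simulated counts for the Myb GC comparison alone. Those counts held no effect shared by pools of the same number, so the run did not test what the block is meant to remove. Intervals and floors cover counting error only.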

Additional observations from a re-analysis of the deposited data

Results flagged for a closer look

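With the replicate block, the effect of the Myb knockout in plasmablasts minus that in GC B cells differed for 2 members, Irgm1 (log2 difference -1.18) and Zbp1 (-0.95), and for Irf1 outside the list (-1.17). The effect of Myb deletion minus that of Moz deletion in GC B cells differed for Irf1 (1.43) and Tbx21 (1.92). These came up because the difference of 2 effects itself passed an adjusted p of 0.05 in edgeR. None passed on group means in edgeR, while DESeq2 without the block called Irgm1 in the difference of the Myb effects (adjusted p = 0.0154).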

How the results depend on the processing

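The replicate block moved the members higher in Myb knockout GC B cells to 11, against 1 without it, the members lower in the difference of the Myb effects to 2, against 0, and the members lower in control plasmablasts to 4, against 2; in the last the pools share a number but no date (correlation of their deviations 0.247). In Myb knockout GC B cells the count higher was 3 with DESeq2, 9 with no filter on low counts, 0 with the compared groups alone, 0 with any 1 library left out, and 0 with the block and both first pools left out, an alternative chosen after seeing the data in which each genotype holds 1 library and other groups give the spread. DESeq2 called 1 member lower in the difference of the Myb effects. No filter gave 2 higher in Myb minus Moz and 3 higher on day 7 against day 12, where the compared groups alone gave 0, as did leaving out any 1 library. In control plasmablasts against GC B cells, library totals alone gave 7 higher and 25 lower. Leaving out 1 library gave 1 to 2 lower, the lower count without plasmablast pool 1, and the 28 members with at least 10 counts in every library included 0 called lower. The cause was not tested, except that the filter and the member list change which genes enter.

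With library totals alone, values of genes named by the rule changed sign in that comparison: Isg15 -0.089, Xaf1 -0.48, Irgm2 -0.10, Trim30a -0.62, Ifnar1 -0.46, Irf1 -0.41, Irf2 -1.52, Tap2 -1.15, Tapbp -0.10, Tyk2 -0.51, Tbk1 -1.16 and Sting1 -0.57. Members outside the rule changed sign too, among them Gbp4 (-1.26), Eif2ak2 (-1.23), Ifi203 (-0.96) and Irf9 (-1.11), which rose in the block fit. Of these, Ifi203 and Irf9 rose on group means as well. Gbp2 in Myb plasmablasts was -0.30 to 1.18 when 1 library was left out. Of the other values of single named genes, 1015 kept direction and side of the threshold, 64 passed where they had not, and 36 no longer passed. The depth limits members near 1 CPM, such as Ifit1, Rsad2 and Oas2.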
